A study of Homo sapiens with 6 samples.

Results

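The EPS8 family of actin regulators was followed in U-2 OS cells after ionizing radiation (IR). The 6 genes comprise EPS8, its 3 paralogs EPS8L1, EPS8L2 and EPS8L3, and the partner proteins' genes ABI1 and SOS1. They were picked by gene symbol out of 21447 genes measured. EPS8L2 was chosen because it lay among the genes with the strongest evidence for a higher level after IR in the same libraries, so its values are given below as a description without a test. The other 5 genes were included for their kinship with it or their link to its protein.

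The study exposed unsynchronized U-2 OS cells, an established osteosarcoma line, to 4 Gy of IR and lysed them 24 h later, or left the cells untreated (UT). Each group held 3 RNA libraries of one line, with no genetic change named in the labels for either group. The labels name poly(A) RNA, whereas the methods name a total RNA kit. The methods call the 3 samples of a group independent, but no source used here says whether they were separate cultures, and p-values measure the spread between these libraries. Estimated counts per library ran from 18573309 to 22953834 in 5 libraries and reached 45308792 in IR replicate 3, which therefore had the smallest counting error. Chi-square per gene, which also grows with counts, was 29.1 and 32.3 between IR replicate 3 and IR replicates 1 and 2. It was 5.96 between IR replicates 1 and 2, and 3.46 to 9.22 between untreated libraries. In such bulk samples a lower value because fewer cells express a gene and one because each cell holds less of its RNA cannot be told apart.

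EPS8 proteins work at the cell edge, where they cap the fast-growing (barbed) ends of actin filaments and bundle filaments. EPS8 also joins ABI1 and SOS1 in a complex downstream of growth factor receptors, in which SOS1 loads the small GTPase RAC1 with GTP and so promotes branched actin networks and membrane ruffles. EPS8L2 is known above all from the inner ear, where it maintains the actin bundles of hair cell stereocilia, and the paralogs are otherwise best known from epithelia. ABI1 has a further role as a subunit of the WAVE complex, which switches on the Arp2/3 complex.

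The genes differ widely in base composition. The GC content of their transcripts, given below for EPS8L2, EPS8, ABI1 and SOS1, matters here because one processing alternative corrects each library for its trend with it. Promoter sequence did not enter that correction and is described separately. The promoter table from RefSeq (GRCh38.p14), which spans 250 bases before to 50 bases after each start, held windows for 5 of the 6 genes, EPS8 being the one not matched. The 120 most upstream bases of a window of EPS8L2 (chr11:705981-706100, plus strand), of ABI1 (chr10:26861089-26861208, minus strand) and of SOS1 (chr2:39121182-39121301, minus strand) are shown to make the difference between promoters visible, with CpG dinucleotides in capitals.
EPS8L2: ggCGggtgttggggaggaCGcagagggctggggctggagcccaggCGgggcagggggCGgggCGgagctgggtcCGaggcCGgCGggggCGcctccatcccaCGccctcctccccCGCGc
ABI1: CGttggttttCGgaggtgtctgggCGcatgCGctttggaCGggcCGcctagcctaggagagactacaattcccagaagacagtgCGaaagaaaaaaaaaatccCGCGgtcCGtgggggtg
SOS1: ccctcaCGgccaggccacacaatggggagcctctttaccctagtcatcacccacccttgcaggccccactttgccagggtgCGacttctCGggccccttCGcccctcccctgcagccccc
Over the full window the GC content was 81.3% for EPS8L2, above that of 98.4% of the 35116 windows in the table, against 62.0% for ABI1 and 65.7% for SOS1. The EPS8L2 window held 5 GC boxes (GGGCGG on either strand, overlapping matches counted), and 26.7% of all windows held 2 or more. A second EPS8L2 window, at an internal start (chr11:720390-720689, plus strand), held 1 match to the p53 half-site consensus, as did 6.63% of all windows with at least 1 match. No EPS8L2 transcript measured held that match in an exon (chr11:720505-720534, the match in capitals), and nothing is concluded from it about the factor.
EPS8L2 internal window: cctgtgctccAGGCTTGTCCacagctccgg

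EPS8L2 (ENSG00000177106) lies on the plus strand of chr11:694438-727727 (GRCh38), and its canonical transcript has 21 exons and 715 codons. In CPM (estimated counts per 1000000 counts of the library, with library sizes scaled by TMM), the untreated libraries gave 29.2, 28.4 and 28.0 and the IR libraries 62.6, 68.0 and 73.0. Every IR library was above every untreated one and the untreated values lay close together. The group means of 28.5 ± 0.610 and 67.9 ± 5.19 CPM (SD, n = 3) were 2.38-fold apart, with a fitted log2 difference of 1.25 (SE 0.08). With the correction for GC content the log2 fold change was 0.91. The GC content of EPS8L2 transcripts, 63.7%, was above that of 95.7% of the 14323 genes tested.

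EPS8 (ENSG00000151491, chr12:15620134-15882329, minus strand), the founding member that caps and bundles actin filaments, gave lower values after IR, but the difference did not pass the test. The untreated libraries gave 35.0, 34.7 and 37.5 CPM and the IR libraries 33.3, 30.8 and 25.3 CPM. The groups did not overlap, IR replicate 3 being the lowest. The log2 fold change was −0.27 (SE 0.10, 95% interval −0.50 to −0.04), with an adjusted P of 0.0684 by edgeR's quasi-likelihood test over all 14323 genes. Without IR replicate 1 the log2 fold change was −0.37 and passed at an adjusted P of 0.0232, while without IR replicate 3 it was −0.17 (adjusted P = 0.132). With the GC correction it was −0.14 (adjusted P = 0.218, edgeR). EPS8 transcripts had a GC content of 42.7%, above that of 24.9% of tested genes. On the deposited TPM scale, which accounts for transcript length, the groups overlapped, because IR replicate 1 at 19.1 TPM lay within the untreated range of 18.5 to 19.4 TPM.

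The remaining paralogs were nearly silent. EPS8L1 (ENSG00000131037, chr19:55072020-55087923, plus strand) had 4 estimated counts over the untreated and 8 over the IR libraries, equal to 0.0655 CPM (exact Poisson 95% interval 0.0178 to 0.168) and 0.0950 CPM (0.0410 to 0.187). These intervals, which cover counting error only, overlap, and no difference was detectable at this depth. EPS8L3 (ENSG00000198758, chr1:109750080-109764027, minus strand) had 0 counts in all 6 libraries, which allows up to 0.0491 CPM over the untreated and 0.0356 CPM over the IR libraries, taking 3 counts per group as the floor. Both genes fell below the filter on low counts, so that 4 of the 6 genes entered the fit.

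**Figure D1:**
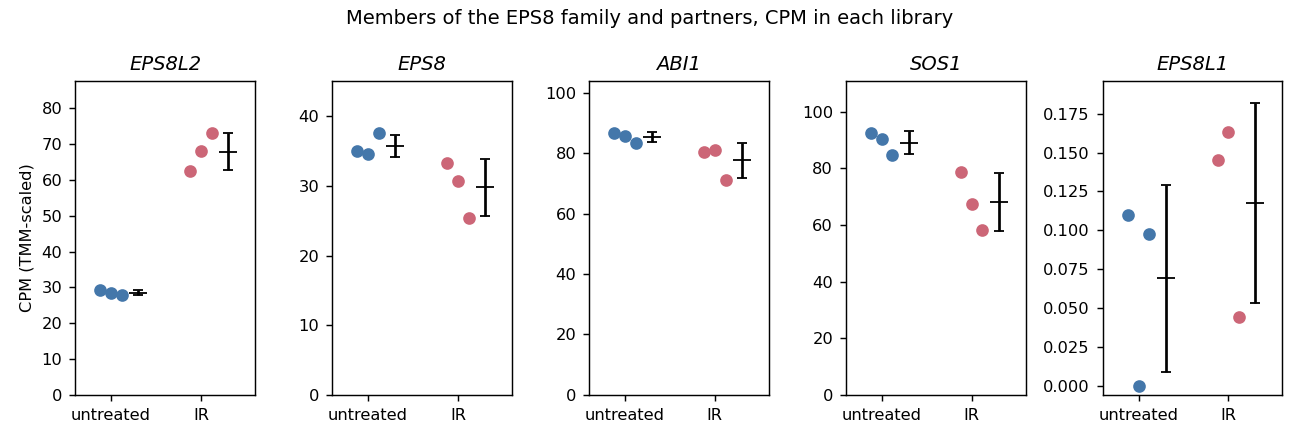
CPM of the 4 fitted genes and of EPS8L1 in each library (blue points untreated, red points IR, left to right replicates 1 to 3), with the group mean and SD in black and a separate axis for each gene. The EPS8L2 means are 28.5 and 67.9 CPM, while the IR points of EPS8, ABI1 and SOS1 all sit below the untreated ones.

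SOS1 (ENSG00000115904, chr2:38962206-39124345, minus strand), the exchange factor of the complex, was the one partner whose fall passed the test. The untreated libraries gave 92.4, 90.3 and 84.5 CPM and the IR libraries 78.7, 67.5 and 58.4 CPM. All IR libraries were below all untreated ones, and the IR libraries spread over a wider range. Means of 89.1 ± 4.05 and 68.2 ± 10.2 CPM (SD, n = 3) went with a log2 fold change of −0.39 (SE 0.10, 95% interval −0.61 to −0.17) and an adjusted P of 0.0166 by edgeR. The call was lost with the GC correction (log2 fold change −0.23, adjusted P = 0.0604), with the effective length offset (−0.54, adjusted P = 0.0766), and without untreated replicate 1 (0.0635), untreated replicate 2 (0.0581) or IR replicate 2 (0.0508), the direction being kept each time.

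ABI1 (ENSG00000136754, chr10:26746593-26861087, minus strand), the adaptor that bridges EPS8 to SOS1, gave 86.5, 85.7 and 83.4 CPM in untreated and 80.5, 81.2 and 71.0 CPM in IR libraries. The groups were separate, but by little. The log2 fold change was −0.14 (SE 0.07, 95% interval −0.30 to 0.02; adjusted P = 0.166, edgeR), and it turned to 0.06 with the GC correction (adjusted P = 0.466). ABI1 transcripts had a GC content of 38.2%, above that of 5.50% of tested genes, and those of SOS1 40.7%, above 15.2%.

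Of the 3 tested genes other than EPS8L2, 1 was called lower (SOS1), against 30.1% of all tested genes called in either direction and 14.5% called lower. All 3 had IR libraries entirely below the untreated ones, a separation in one direction or the other that 47.0% of all tested genes showed. An exact two-sided permutation test gave P = 0.1 for each of EPS8, ABI1 and SOS1, the smallest value that 3 libraries against 3 can give. IR replicate 3, the deepest library, was the lowest IR library for these 3 genes and the highest for EPS8L2. Leaving it out gave log2 fold changes of −0.29 for SOS1 (adjusted P = 0.0168), −0.09 for ABI1 and 1.18 for EPS8L2.

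**Figure D2:**
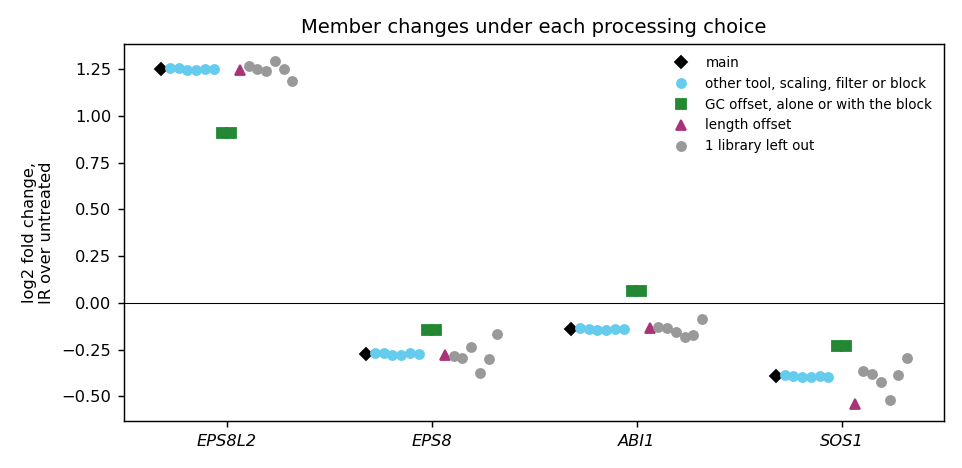
Log2 fold change (IR over untreated) of the 4 fitted genes under each processing choice, with the reported value as a black diamond. The green squares (GC correction) lie nearer to 0 for EPS8L2, EPS8 and SOS1 and on the other side of 0 for ABI1, and EPS8L2 stays above 0.9 throughout.

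Levels of different genes can be compared only per length, for which the deposited TPM values were summed per gene. In untreated cells ABI1 was highest at 40.2 ± 1.33 TPM, followed by SOS1 at 27.8 ± 2.34, EPS8L2 at 21.9 ± 8.94 and EPS8 at 18.9 ± 0.462 (SD, n = 3), with EPS8L1 at 0.0981 ± 0.131 and EPS8L3 at 0. SOS1 and EPS8L2 overlapped in their library values, as did EPS8L2 and EPS8. After IR the order was EPS8L2 at 50.0 ± 11.2 TPM, ABI1 at 35.4 ± 1.43, SOS1 at 18.4 ± 4.13 and EPS8 at 15.1 ± 3.50, with EPS8L1 at 0.162 ± 0.122. SOS1 and EPS8 then overlapped, whereas every IR library of EPS8L2 (41.3 TPM or more) was above every one of ABI1 (37.0 TPM or less). EPS8L2 thus moved from the third to the first place in summed TPM. That sum includes short transcripts. The retained-intron ENST00000534027, of 342 bases, held 9.02, 1.74 and 9.37 TPM in untreated and 11.9, 8.19 and 21.5 TPM in IR libraries. The canonical ENST00000318562, of 3030 bases, held 6.06, 5.30 and 3.12 TPM in untreated and 4.64, 15.4 and 18.9 TPM in IR libraries. ENST00000533256, of 3266 bases, held 9.12 TPM in IR replicate 1. ABI1 was at 34.2 TPM or more in every IR library.

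The TPM of EPS8L2 varied far more between like libraries than its CPM. The untreated values were 21.1, 13.4 and 31.2 TPM and the IR values 46.1, 41.3 and 62.7 TPM. The groups remained separate on this scale. Short transcripts varied between the untreated libraries, ENST00000524763 (580 bases) from 0.385 to 7.68 TPM and ENST00000534027 from 1.74 to 9.37 TPM. Their part in the spread of the sum was not tested. Among the 4 paralogs, EPS8L2 made up 52.6%, 40.8% and 62.7% of the summed TPM in untreated and 70.5%, 74.7% and 83.4% in IR libraries. By these sums, which include the short transcripts, it exceeded EPS8 in 2 of 3 untreated and in 3 of 3 IR libraries.

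**Figure D3:**
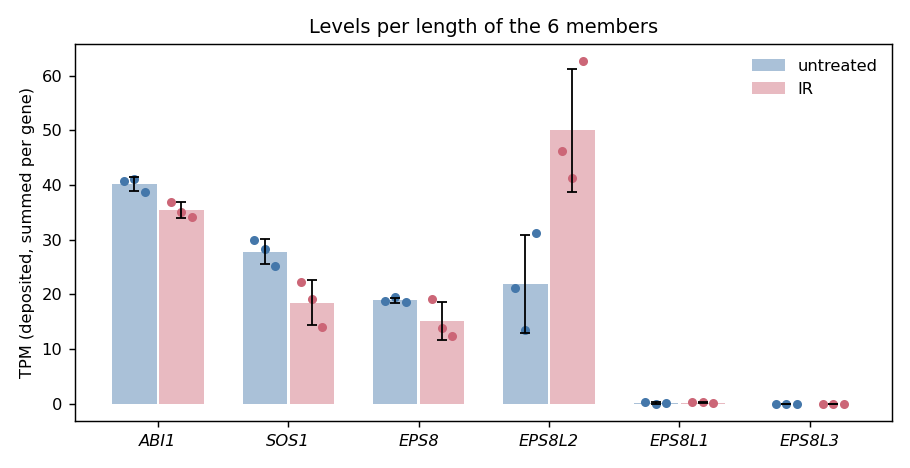
Deposited TPM summed per gene for the 6 members (bars, group means; points, libraries; black lines, SD; blue untreated, red IR). EPS8L2 is the one gene whose IR bar (50.0 TPM) stands above its untreated bar (21.9 TPM) by more than both SDs, and EPS8L1 and EPS8L3 lie at or near 0.

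The counts of EPS8L2 were spread over many transcripts. Of 31 annotated transcripts in the files, 28 had a count in some library, 4 had at least 1 count in every library, and 11 reached 5% of the gene in at least 1 library. Protein-coding transcripts together gave 22.5, 23.0 and 18.8 CPM in untreated and 49.1, 58.8 and 61.7 CPM in IR libraries. Their groups were separate, with means of 21.5 ± 2.29 and 56.5 ± 6.58 CPM (2.63-fold). Transcripts with a retained intron had means of 3.96 ± 2.67 and 6.46 ± 1.06 CPM, and those annotated for nonsense-mediated decay 3.10 ± 0.769 and 4.30 ± 3.02 CPM (SD, n = 3 each), with overlapping groups in both classes.

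The leading transcript was the canonical ENST00000318562 (chr11:706231-727727), with 18.7, 16.5 and 9.44 CPM in untreated and 14.2, 51.3 and 49.8 CPM in IR libraries. IR replicate 1 fell within the untreated range. In that library alone, ENST00000533256, a protein-coding transcript with an additional non-coding exon (chr11:706677-706801, 125 bases), was given 578 counts or 28.0 CPM, which was 44.7% of the gene (Wilson 95% interval 42.0 to 47.4%, counting error only), against 0 in the other 5 libraries. The pair summed to 42.2, 51.3 and 49.8 CPM after IR and to 18.7, 16.5 and 9.44 CPM in untreated cells, without overlap. Only 1 of the 3000 runs of 31 bases in ENST00000318562 occurs in no other transcript measured, and 28 of 3236 do in ENST00000533256. The part of this near identity in the split of IR replicate 1 was not tested.

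Among the other transcripts above 5%, ENST00000614442 keeps 48 more coding bases at the start of its exon 6 (chr11:720549-720596), equal to 16 codons, than the canonical form. The segment is shown in capitals with 12 flanking bases on each side (chr11:720537-720608, plus strand), because it would add residues inside the protein.
EPS8L2 exon 6: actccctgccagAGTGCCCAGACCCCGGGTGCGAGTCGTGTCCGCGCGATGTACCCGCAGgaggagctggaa
Its transcript gave 1.13, 3.71 and 0 CPM in untreated and 0, 3.48 and 3.61 CPM in IR libraries. The groups overlapped, and both held a library at 0. None of its 31-base runs is private, since 3 transcripts carry the segment.

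The remaining 8 transcripts at or above 5% held between 0 and 6.44 CPM. ENST00000526909, annotated for nonsense-mediated decay, was the one of them with separate groups, at 1.64, 0.717 and 1.23 CPM in untreated and 3.68, 1.93 and 2.38 CPM in IR libraries. Group ranges overlapped for the protein-coding ENST00000526198, ENST00000524763, ENST00000530636 and ENST00000650127, for ENST00000528770 (nonsense-mediated decay), and for ENST00000534027 and ENST00000527832 (retained intron). ENST00000530636 and ENST00000527832 were highest in untreated replicate 3, at 6.44 and 4.00 CPM, the library in which the canonical form was lowest.

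**Figure D4:**
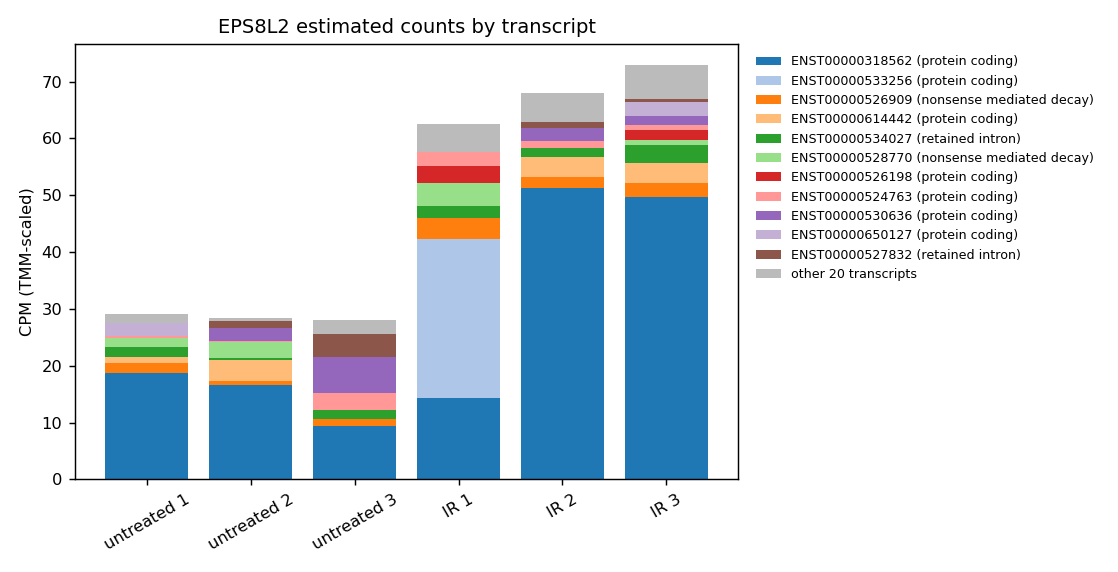
CPM of EPS8L2 by transcript in each library, stacked, with the 11 transcripts that reach 5% of the gene in colour and the other 20 in grey. The totals are about 28 in untreated and 62.6 to 73.0 in IR libraries, and ENST00000533256 (light blue) appears in IR replicate 1 alone.

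SOS1 counts came almost wholly from a pair of transcripts. The longer ENST00000402219 gave 46.1, 45.4 and 44.1 CPM in untreated and 44.8, 38.2 and 42.9 CPM in IR libraries, which overlapped. The shorter ENST00000395038 gave 45.1, 44.2 and 39.7 CPM in untreated and 33.4, 28.1 and 15.3 CPM in IR libraries, which did not. The test of transcript usage by edgeR's diffSpliceDGE nevertheless called none of EPS8, ABI1 and SOS1, with unadjusted P of 0.854, 0.602 and 0.861 (none under 0.05) and an adjusted P of 1.00 for each, where 2.71% of 10666 genes were called. By GENCODE release 44 sequences, 26 of the 4093 runs of 31 bases in the shorter SOS1 transcript occur in no other transcript matched to that release. In the longer transcript, 4809 of 8876 runs do. The part of this overlap in the split between them was not tested. ENST00000376139 held 58.2% to 74.3% of ABI1 over the 6 libraries and led in each. For EPS8 the split was uneven between like libraries, and ENST00000543612 held 0% to 50.2% of the gene.

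Sequence shared with other genes was counted in runs of 31 bases, and its effect on the estimated counts was not tested. Of the distinct 31-base runs in EPS8L2 transcripts, 2 of 6210 also occurred in another gene, DEAF1, which overlaps EPS8L2 on the opposite strand. The shares were 1.33% for EPS8, in runs found in 498 other genes, and 3.99% for ABI1, all with the overlapping gene PDSS1, and 0 for EPS8L1, EPS8L3 and SOS1. No run was common to 2 of the 6 genes. Whether the counting used strand is not given in the sources used here.

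The wider actin machinery had calls in both directions. Of 92 genes in 9 lists of actin regulators, with the 6 members left out, 84 were tested, 12 were called higher and 14 lower, where 15.5% of all tested genes were called higher and 14.5% lower. The median log2 fold change was 0.03 over these genes and 0.01 over all tested genes. With the GC correction the counts were 15 higher and 8 lower, and with the effective length offset 9 and 4.

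Among 13 tested partners of the EPS8, ABI1 and SOS1 complex, 2 were called higher and 2 lower. BAIAP2 (IRSp53), a membrane-bending partner of EPS8 in filopodia, rose from 77.1 ± 1.90 to 93.4 ± 11.7 CPM (log2 fold change 0.28, SE 0.09). ABI3 rose from 8.29 ± 0.716 to 11.1 ± 0.547 CPM (0.43, SE 0.12), whereas ABI2 fell from 115 ± 3.93 to 98.8 ± 7.14 CPM (−0.22, SE 0.07), both being relatives of ABI1. USP6NL, a RAB5 GTPase-activating protein that binds EPS8, fell from 49.6 ± 3.23 to 40.2 ± 4.10 CPM (−0.30, SE 0.09). None of these 4 calls was kept with the GC correction or the effective length offset. The target GTPase RAC1 was not called (618 and 571 CPM, adjusted P = 0.191, edgeR), nor were the receptor gene EGFR (20.8 and 22.9 CPM) and SOS2 (56.5 and 50.7 CPM), the paralog of SOS1.

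The WAVE complex, which holds ABI1 and turns on the Arp2/3 complex, had 2 genes called higher and 3 lower of 10 tested. CYFIP2, a subunit that links the complex to RAC1, gave 47.7, 53.9 and 42.6 CPM in untreated and 97.4, 101 and 111 CPM in IR libraries. The groups were far apart, with a log2 fold change of 1.10 (SE 0.09, adjusted P = 0.000164, edgeR), 1.08 with the GC correction and 1.25 with the effective length offset. Its paralog CYFIP1 was not called, at 114 and 121 CPM. WASF2, the actin-activating subunit, fell from 162 ± 8.26 to 130 ± 2.60 CPM (−0.32, SE 0.06) and NCKAP1, a scaffold subunit, from 318 ± 3.70 to 259 ± 9.82 CPM (−0.30, SE 0.06). The call of WASF2 was kept with the GC correction and the effective length offset, and that of NCKAP1 with neither. ABI2 and ABI3, given above, complete the 5.

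The Arp2/3 complex, which nucleates branched filaments, had 2 of 9 tested subunits higher and 0 lower, namely ARPC1B (0.60, SE 0.10) and ARPC4 (0.41, SE 0.11), and 6 higher with the GC correction. Its lower count was 1 at an unadjusted P under 0.05 and 1 by the DESeq2 Wald test. Bundling proteins had 2 of 7 higher and 0 lower, fascin (FSCN1, 0.63, SE 0.12) and L-plastin (LCP1, 0.52, SE 0.14), all as log2 fold changes. Coronins CORO1A (0.99, SE 0.19) and CORO1B (0.61, SE 0.10) were the 2 genes called among 12 tested actin turnover genes, both higher. With the GC correction the log2 fold changes were 0.24 for FSCN1, 0.61 for LCP1, 0.69 for CORO1A and 0.26 for CORO1B, all still called. In these last 2 lists, no gene was lower at an unadjusted P under 0.05 by edgeR, or at an adjusted P under 0.05 by DESeq2. With the effective length offset, however, PLS1 of the bundling list was called lower (−0.52, adjusted P = 0.0405, edgeR) and LCP1 was no longer called (0.21, adjusted P = 0.532). At barbed ends, the site of EPS8 action, 3 of 13 tested capping and severing proteins were higher and 3 lower, with gelsolin (GSN) at 0.52 (SE 0.10) and adducin 3 (ADD3) at −0.43 (SE 0.09) having the lowest P in each direction. The call of ADD3 was lost with the effective length offset (adjusted P = 0.0607, edgeR).

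In 3 small lists the edgeR calls were in the lower direction alone, where 15.5% of all tested genes were called higher and 14.5% lower. At an unadjusted P under 0.05 by edgeR, 1 formin or Ena/VASP gene, 0 of the WASP genes and 2 of the cortex genes were higher. At an adjusted P under 0.05 by DESeq2, 0 in each list were higher. Of 11 tested formins and Ena/VASP proteins, which elongate filaments, ENAH (−0.40, SE 0.07), DAAM2 (−0.35, SE 0.08) and DIAPH3 (−0.31, SE 0.09) fell. WASL (−0.31, SE 0.08) and WIPF2 (−0.27, SE 0.08) fell among 4 tested genes of WASP and its partners. In the cortex and microvilli list, MYO10 (−0.45, SE 0.06), the motor of filopodia, and RDX (−0.38, SE 0.07), which tethers actin to the membrane, fell among 8 tested genes. The calls of DIAPH3 and WASL were lost with the GC correction, which also called MYO1E of the cortex list higher (0.34, adjusted P = 0.0303, edgeR). With the effective length offset MYO10 alone of these 7 genes stayed called, the adjusted P of the others running from 0.0590 for ENAH to 0.454 for DAAM2.

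**Figure D5:**
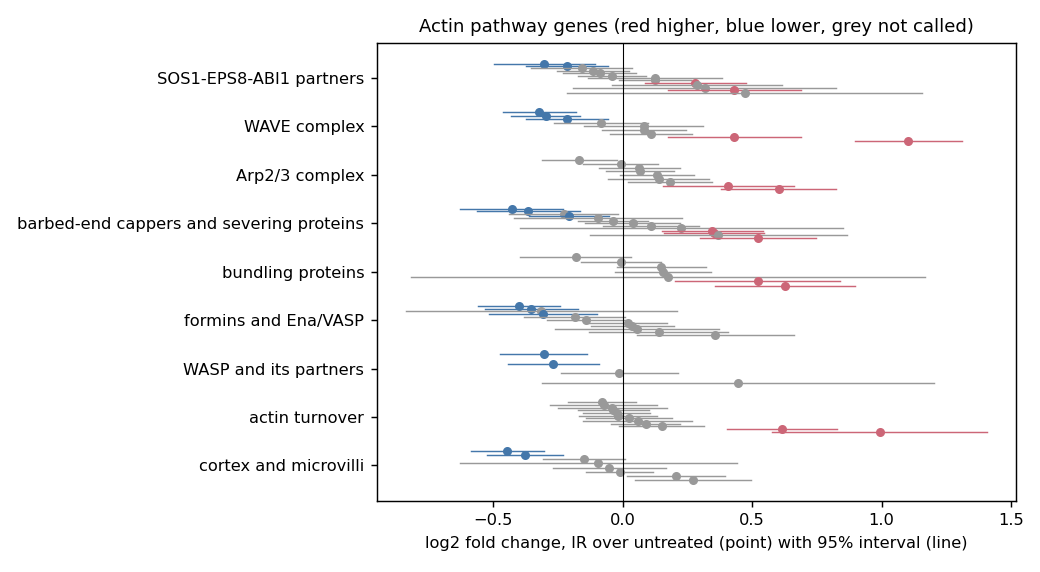
Log2 fold change (IR over untreated, points) with 95% interval (lines) of the tested actin genes in each of 9 lists, in red where called higher, blue where called lower and grey where not called, with ABI2 and ABI3 in 2 lists. CYFIP2 at 1.10 stands farthest to the right, and the lists of formins, WASP partners and cortex proteins hold blue but no red points.

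Markers were read because EPS8 paralogs are often epithelial genes. The mesenchymal and osteoblast list summed to 7034 to 8129 CPM over the libraries, led by COL1A1, SPARC and VIM, while the late osteoblast genes BGLAP and IBSP had means under 0.21 CPM and SP7 was at 0. In that list ALPL, an early osteoblast enzyme, was called higher (1.87 ± 0.238 and 4.00 ± 0.953 CPM, log2 fold change 1.09, SE 0.23) and RUNX2, the osteoblast lineage factor, lower (15.8 ± 0.304 and 12.3 ± 1.36 CPM, −0.36, SE 0.10), the call of RUNX2 being lost with the effective length offset. Of 8 epithelial markers, 5 were tested and 3 called higher after IR, KRT8 (log2 fold change 0.40, SE 0.08), KRT18 (0.42, SE 0.09) and CDH1 (0.61, SE 0.20). Among all tested genes, 15.5% were called higher and 14.5% lower. With the effective length offset KRT18 alone of the 3 stayed called. Their list summed to 313 to 316 CPM in untreated and 376 to 458 CPM in IR libraries, with KRT19, ESRP1 and GRHL2 at means under 0.23 CPM in both groups. The part of this in the change of EPS8L2 was not tested. The leukocyte gene CD3E was at 0 in all libraries, and PTPRC had 1.49 and 0.877 CPM.

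The neighbours of EPS8L2 on chromosome 11 were read in the same fit. Of 16 protein-coding genes that overlap the 100 kb on either side, 10 were tested, and 4 were called higher and 0 lower by edgeR. Over all tested genes, 15.5% were called higher and 14.5% lower. The lower count of the neighbours was also 0 at an unadjusted P under 0.05 by edgeR and at an adjusted P under 0.05 by DESeq2. PIDD1, which encodes a death domain protein, rose from 14.8 ± 0.909 to 28.7 ± 4.86 CPM (log2 fold change 0.97, SE 0.12), and SLC25A22 (0.48, SE 0.14), RPLP2 (0.46, SE 0.13) and DEAF1 (0.34, SE 0.11) also rose. The GC correction left PIDD1 alone among them (0.54, adjusted P = 0.000948) and called PHRF1 lower (−0.41, adjusted P = 0.00699). Leaving out each library in turn gave 1 to 3 genes higher, with 1 without untreated replicate 2 or IR replicate 3 and 2 without untreated replicate 1 or 3. TMEM80, whose start lies 1.15 kb from the outermost annotated start of EPS8L2 (chr11:694438), was not called (4.93 and 3.91 CPM, −0.34, SE 0.16). The leading EPS8L2 transcript starts at chr11:706231, nearer to the start of DEAF1 (chr11:707118, minus strand) than to that of TMEM80 (chr11:695591). Also not called were TALDO1 (85.0 and 84.3 CPM), GATD1 (47.3 and 47.0 CPM), PNPLA2 (18.7 and 20.6 CPM) and PANO1 (0.564 and 0.566 CPM). IRF7, CDHR5, SCT, DRD4, CEND1 and CRACR2B had means under 0.7 CPM.

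The genes whose log2 CPM ran most alike with that of EPS8L2 over the 6 libraries, out of 11674 with a mean of at least 100 counts, were CDKN1A (Pearson r = 0.999), GLT8D2 (0.999), KRT34 (0.999), RRM2B (0.998) and SFT2D1 (0.998). CDKN1A encodes the cyclin-dependent kinase inhibitor p21 and RRM2B a subunit of ribonucleotide reductase. CDKN1A gave 122, 124 and 120 CPM in untreated and 322, 341 and 390 CPM in IR libraries. The libraries form 2 groups, so these values mainly restate the step between groups, and they also share library depth. The most alike genes were CALD1, LRRCC1 and CPSF2 for EPS8 (0.999 to 0.996), YTHDC1 and EXOSC10 for ABI1 (0.999 and 0.997), and BBX, TCEANC2 and PRKAA1 for SOS1 (1.00 to 0.996).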

How the data were processed

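RNA of U-2 OS cells was sequenced by the study from 3 untreated and 3 IR libraries. The methods name a total RNA kit and the labels an mRNA kit. The authors trimmed reads with fastp and ran kallisto on GENCODE release 37 (GRCh38), and deposited per transcript an estimated count, not normalized, and a TPM value, normalized by them for effective length and total. The kallisto version is not given in the sources used here. Here 158711 of 161171 transcripts found their identifier in GENCODE release 44, and counts were summed per gene and rounded. Sequences and GC content were taken from release 44, where 5385 matched transcripts had another length than in the deposited values. Genes passing filterByExpr were scaled by TMM and tested with edgeR 4.0.16 (glmQLFit, glmQLFTest; R 4.3.3), Benjamini–Hochberg threshold 0.05. Standard errors and 95% intervals come from the F statistics. Both steps were tested on simulated counts. Alternatives were the filter, size factors and the Wald test of DESeq2 1.42.0, a replicate block, the likelihood ratio test of edgeR, a GC offset, an effective length offset and each library left out. Same-numbered libraries did not deviate together. Members, lists and naming rules were chosen with earlier results of these data known. The naming rule took the 6 members, called genes of lists with up to 5 calls, otherwise the lowest P in each direction, EPS8L2 transcripts at 5% or more, its neighbours within 100 kb and the most correlated genes. Genes given as not called, and transcripts of the partners, were named after their values were seen. Some genes that this rule or the marker lists take are not reported here.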

Additional observations from a re-analysis of the deposited data

How the results depend on the processing

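Of the values recomputed, the log2 fold change of EPS8L2 kept its direction under every alternative run, from 1.18 to 1.29 with each library left out, and came to 0.91 with the GC offset alone and with the replicate block. EPS8L2 was chosen for its rise in these same libraries, so these refits are no independent check of that rise. ABI1 turned from −0.14 to 0.06 with the GC offset, alone (0.063) and with the block (0.065), and ran from −0.18 to −0.09 with a library left out. SOS1 was no longer called with the GC offset (−0.23), with the effective length offset (−0.54), or in 3 of 6 fits with a library left out (−0.52 to −0.29 over all 6). EPS8 ran from −0.37 to −0.17 there, called without IR replicate 1 alone. Members called lower, 1 as reported, were accordingly 0 with the GC or length offset and 0 to 2 with a library left out. The actin lists had 12 higher and 14 lower. Their lower calls came to 8 with the GC offset, 7 with GC offset and block, 4 with the length offset and 8 to 16 with a library left out. Neighbours of EPS8L2 called higher, 4 as reported, were 1 with the GC offset, 2 with GC offset and block, 1 with the length offset and 1 to 3 with a library left out, while 1 was lower with the GC offset, alone or with the block. Over all genes, 2227 were higher and 2080 lower, against 833 and 875 with the length offset, and 1295 to 2114 and 1244 to 2284 with a library left out. The cause of each of these shifts was not tested.

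The replicate numbers are shared between the groups, but no source says that they mark a batch, and same-numbered libraries correlated at −0.017, 0.007 and −0.052 in their deviations from the group means. The replicate block gave log2 fold changes of −0.28 for EPS8, −0.14 for ABI1, −0.40 for SOS1 (adjusted P = 0.0137, edgeR) and 1.25 for EPS8L2. It changed none of the members' calls, and gave 1727 higher and 1624 lower calls over all genes. Depth limits EPS8L1 and EPS8L3, at 4 and 8 counts per group and at 0.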
